A study of Mus musculus with 6 samples.

Results

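The cytoplasmic ribosomal protein genes are those that encode the proteins of the large and small subunits of the ribosome outside mitochondria. They were chosen by symbol: every protein-coding gene whose mouse symbol is Rpl or Rps followed by a number, with its letter suffixes, or is Rplp0, Rplp1, Rplp2 or Rpsa. Rps6k kinases and symbols marked as pseudogenes were left out. The rule gave 84 genes, 52 of the large and 32 of the small subunit, among 21805 protein-coding genes and 54115 genes in all. Of the 84 genes, 77 encode a canonical ribosomal protein and 7 encode a paralogue of one.

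Each ribosome holds these proteins in fixed proportion around the ribosomal RNAs, and the cell makes them in large amounts. Their mRNAs are known as short, abundant transcripts that begin with a run of pyrimidines, the 5′ terminal oligopyrimidine or TOP motif, through which mTORC1 controls their translation. Satellite cells are the resident stem cells of muscle and are known to raise ribosome production when they leave quiescence.

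The mRNAs were counted by RNA-sequencing in satellite cells taken straight from the muscle, in 3 Pax7WT and 3 Pax7KR samples on the C57BL/6J background, from an input of 15 ng of RNA each. The Pax7KR mice were homozygous for an arginine in place of the acetylated lysine that lies between the paired domain and the homeodomain of PAX7, made in zygotes with CRISPR/Cas9, and the Pax7WT mice were littermates without it. The change was present in the whole body, not in satellite cells alone. Cells of both genotypes were sorted from hindlimb muscle without injury as positive for α7-INTEGRIN and CD34 and negative for CD31, CD11b, SCA-1 and CD45. The mice were young adults of 6 to 8 weeks. The number of mice per sample is not given in the sources used here. The question put to the ribosomal protein mRNAs was whether their levels differed between the genotypes.

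The libraries held 17822367 to 27908054 estimated reads, and Pax7WT replicate 2 was the shallowest. The satellite cell markers were present in every library, with Pax7 between 1409 and 1666 CPM and Myf5 between 402 and 456 CPM (reads scaled to the size of the library). The 13 immune markers summed to at most 15.4 CPM in any library, the 12 endothelial markers to 326 to 459 CPM, the 9 smooth muscle and pericyte markers to 2375 to 2917 CPM and the 11 myofibre markers to 221 to 324 CPM. The 10 fibro-adipogenic markers summed to 2007 to 2134 CPM, with the defining Pdgfra at no more than 3.81 CPM. The 6 erythroid markers, mostly globins, summed to 190, 211 and 376 CPM in Pax7WT and 353, 329 and 557 CPM in Pax7KR, and all 6 had log2 fold changes above 0 (median 0.69). Of the 12 endothelial markers, 11 were above 0 (median 0.31), and of the 9 smooth muscle and pericyte markers 9 were below 0 (median -0.10). The 7 glial markers summed to 83.8 to 129 CPM. The genotypes overlapped in each of these sums. In edgeR, 0 of the markers were called at an adjusted p under 0.1, where 0 of all 17152 genes were called, so this count cannot show like cell composition. At an unadjusted p under 0.05, 1 immune marker was higher and 1 glial marker lower, against 2.26% of all genes higher and 2.43% lower. The part of these markers in the ribosomal protein values was not tested. Pax7KR replicate 2 held the Y-linked Ddx3y at 52.0 CPM, against 117 to 135 CPM in the other 5 libraries. Xist was at 0.879 CPM in that library, against 0.437 to 2.29 CPM in the other 5. The cause of the low Ddx3y was not tested. In these bulk samples, fewer cells of a type and less RNA per cell cannot be told apart.

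The annotation gave the 84 genes several common features. Their mRNAs were short, with a median length of 941.5 bases and 5 exons, against 2707.5 bases and 7 exons for the other 21721 protein-coding genes. Of the 84 genes, 30 (35.7%) carried at least 1 gene for a small nucleolar RNA within their bounds, 58 such genes in all, against 1.15% of the other protein-coding genes. They were spread over the genome, with 14 on chromosome 7 and 4 (Rpl10, Rpl36a, Rpl39 and Rps4x) on the X chromosome.

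RefSeq start sites on GRCm38.p6 were found for 64 of the 84 genes, 76 starts in all. The sequences below are 30 bases each, 12 before and 18 from the annotated start, on the strand of the gene. They show the pyrimidine run (a C followed by 4 or more bases that are each C or T, in capitals, marked from its C at or next to the annotated start onward) in 5 canonical genes that have it from the annotated start, in Rpl13a, the most abundant of the mRNAs, and in the paralogue Rpl22l1. The last 2 lines are paralogues with no such run beginning within 5 bases of the annotated start.
Rps6: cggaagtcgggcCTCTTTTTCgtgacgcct
Rps18: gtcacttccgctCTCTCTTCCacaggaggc
Rpl35: ccccgccctttcCTCTTTCTCTCgaaccag
Rps27: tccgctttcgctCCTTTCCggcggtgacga
Rpl15: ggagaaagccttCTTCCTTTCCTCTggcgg
Rpl13a: accctgcgacaagaCCTCCTCCTTTCCCag
Rpl22l1: cggcgcaagcccgttCTCTTCCCacggctg
Rpl3l: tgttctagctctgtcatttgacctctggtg
Rpl7l1: aggctgcgcaagcgcagtagctgaagcacc
The windows lie at chr4:86857350-86857379 (minus strand) for Rps6, chr17:33955648-33955677 (minus) for Rps18, chr2:39005114-39005143 (minus) for Rpl35, chr3:90213631-90213660 (minus) for Rps27 and chr14:18270969-18270998 (minus) for Rpl15. Those of the others are chr7:45128728-45128757 (minus) for Rpl13a, chr3:28805496-28805525 (plus) for Rpl22l1, chr17:24727814-24727843 (plus) for Rpl3l and chr17:46782639-46782668 (minus) for Rpl7l1. Counted from the annotated start on, the run was 9 bases long in Rps6 and Rps18, 11 in Rpl35 and 13 in Rpl15, and in some of these genes, Rpl35 and Rpl15 among them, further pyrimidines lie just before that start. In Rpl13a it began 2 bases after the annotated start and was 14 bases long.

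Over all 76 starts, 13 (17.1%) had such a run from the annotated start on, against 2.51% of 32851 starts of all genes. Within 5 bases on either side, 31 starts (40.8%) had one, against 18.3% of all. These counts rest on the annotated starts. Where transcription begins in these cells was not measured, so a gene without a run there is not shown to lack the motif. In the window from 250 bases before to 50 after the start, searched on both strands, CCGGAAG, the core of ETS factor sites, was found at 35.5% of the starts of the ribosomal protein genes and at 8.86% of all starts. AAGATGG, a core of YY1 sites, was found at 15.8% against 6.34%, GGGCGG, the core of SP1 sites, at 60.5% against 35.7%, and TATAAA at 9.21% against 13.6%. These are matches of letters and do not show that a factor binds.

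The ribosomal protein mRNAs stood among the most abundant in satellite cells. By mean TPM over the 6 libraries (a level per length of transcript, scaled to the library), 16 of them were among the 50 most abundant genes, 50 among the first 100 and 70 among the first 200, while 0 were among the first 10. Rpl13a was the highest, with 6287, 6894 and 6149 TPM in the 3 Pax7WT libraries and 6491, 6317 and 6448 TPM in the 3 Pax7KR libraries, and held rank 11 among all genes. Also among the 5 highest were Rps15 near the decoding site (mean 3908 TPM), Rps4x (3617 TPM) and Rps24 (3429 TPM). The spread over the 77 canonical genes was 79.2-fold, from 81.2 TPM for Rpl5 to 6431 TPM for Rpl13a, with a median of 1910 TPM, and 63 of the 77 lay within 2-fold of the median.

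**Figure D1:**
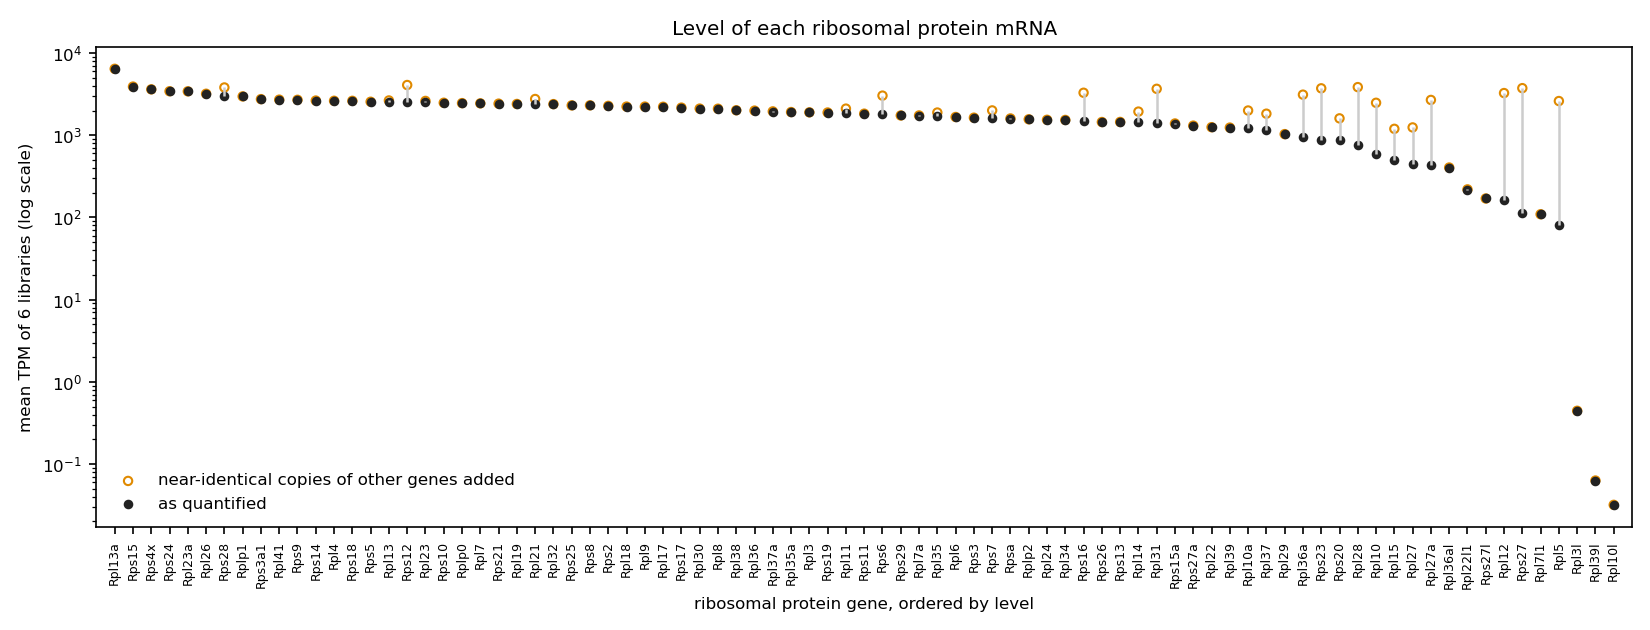
Mean TPM over the 6 libraries (log scale) of the ribosomal protein genes, ordered by level, without 1 gene that is not reported individually, as quantified (filled points) and after adding the TPM of transcripts of other genes that share at least 50% of their 31-base sequences with it (open points). The lowest canonical genes, Rpl5 at 81.2 TPM, Rps27 at 112 TPM and Rpl12 at 162 TPM, move to 2608, 3741 and 3260 TPM, while the paralogues at the right end stay where they were.

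The lowest canonical levels belonged to genes whose mRNA has near-identical copies elsewhere in the genome. A transcript of another gene was counted as a near-identical copy when at least 50% of its 31-base sequences also occurred in a ribosomal protein gene's transcripts. By this measure 342 other genes, 293 of them annotated as pseudogenes, were near copies of 75 of the 84 genes, and their reads came to 14.5% of the reads of the ribosomal protein genes. The share was uneven: copies added under 1% to the reads of 58 genes, 10% or more to 20 genes and 100% or more to 8 genes.

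Rps27 is the clearest case. It was quantified at 131, 184 and 58.6 TPM in the Pax7WT libraries and at 157, 64.8 and 75.5 TPM in the Pax7KR libraries. Its near copy Rps27rt, a protein-coding gene on chromosome 9 (chr9:114982366-114982739, minus strand) whose 31-base sequences are shared with Rps27 at 91.6%, was quantified at a mean of 3629 TPM. Added together, they came to 3655, 4159 and 3212 TPM in Pax7WT and 3756, 4049 and 3613 TPM in Pax7KR, rank 7 of the 84 genes in place of rank 79.

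Rpl5, which with Rpl11 and the 5S rRNA forms the particle that binds Mdm2, was quantified at 70.0, 90.5 and 75.7 TPM in Pax7WT and at 86.5, 75.6 and 88.9 TPM in Pax7KR, while the pseudogene Gm15500 on chromosome 7 held a mean of 2526 TPM. With its copies, Rpl5 stood at a mean of 2608 TPM. Rpl12, at the base of the ribosomal stalk, had a mean of 162 TPM beside 3096 TPM for the pseudogene Gm10275 on chromosome 10, and 3260 TPM with its copies. Every 31-base sequence of both pseudogenes also occurred in the ribosomal protein gene, and reads of a gene and such a copy cannot be told apart there. The other copies with 1210 TPM or more were those of Rpl28, Rps23, Rpl27a, Rpl31, Rpl36a, Rpl10, Rps16, Rps12 and Rps6, named here after their values were seen.

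With the copies added, the 77 canonical genes ranged over 6.23-fold, from 1032 TPM for Rpl29 to 6432 TPM for Rpl13a, with a median of 2310 TPM. Of them, 75 lay within 2-fold of the median. The division of reads between a gene and its copies also varied between libraries. Rps27 had the largest spread within genotype of all ribosomal protein mRNAs with a mean of at least 10 CPM, followed by Rpl12 and Rpl15.

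The 7 paralogues differed widely in level. They share almost no exact 31-base sequence with their partners, with 0 in the partner for 6 of them and 0.966% for Rpl39l. Of those that were well expressed, Rpl36al had a mean of 405 TPM, Rpl22l1 217 TPM, Rps27l, a known p53 target, 170 TPM and Rpl7l1 109 TPM. Their partners Rpl36a, Rpl22, Rps27 and Rpl7 had means of 948, 1254, 112 and 2442 TPM, and with copies added Rpl36a reached 3118 TPM and Rps27 3741 TPM. Rpl22l1 was measured at 195, 235 and 232 TPM in Pax7WT and 202, 230 and 209 TPM in Pax7KR, and the groups overlapped.

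The other 3 paralogues were at or near 0. Rpl3l, known for its restriction to heart and skeletal muscle fibres, had 4, 6 and 15 reads in Pax7WT and 11, 1 and 1 in Pax7KR, against 27644 to 37722 reads for its partner Rpl3. Rpl39l had 0, 0 and 0 reads in Pax7WT and 1, 1 and 0 in Pax7KR. Rpl10l had 0, 0 and 2 reads in Pax7WT and 0 in each Pax7KR library. Both are known from testis, and neither passed the filter of 5 or more reads in 2 or more libraries, so that 82 of the 84 genes were tested. Rps4l, which the annotation lists as a transcribed pseudogene and which therefore is not among the 84 genes, had 3.67, 2.88 and 1.90 CPM in Pax7WT and 5.99, 3.56 and 4.21 CPM in Pax7KR, groups that overlapped (log2 fold change 0.69, SE 0.30, edgeR adjusted p = 0.992).

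The 84 genes together took 4.90%, 5.66% and 4.73% of the reads of the 3 Pax7WT libraries and 4.85%, 4.85% and 4.92% of those of the 3 Pax7KR libraries. Per length, they took 15.1%, 17.0% and 14.5% of TPM in Pax7WT and 15.2%, 15.3% and 15.2% in Pax7KR. The 3 Pax7KR libraries lay close together (SD 0.0505 percentage points, mean 15.2%) and inside the range of the Pax7WT libraries (mean 15.5%, SD 1.28, n = 3 each), so that the groups overlapped on both measures. Pax7WT replicate 2 was the highest library on both.

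The ratio of the summed TPM of the small subunit to that of the large subunit was 0.731, 0.751 and 0.735 in Pax7WT and 0.732, 0.737 and 0.730 in Pax7KR. Pax7WT replicate 2 was again the highest, and the groups overlapped. With the near-identical copies added, the ratio was 0.705, 0.717 and 0.701 in Pax7WT and 0.705, 0.719 and 0.702 in Pax7KR, so that Pax7KR replicate 2 was the highest, and the difference of the means (Pax7KR minus Pax7WT) turned from -0.0062 to 0.0012. Adding the near-identical copies raised the share of TPM to 18.6%, 20.8% and 17.8% in Pax7WT and 18.6%, 18.8% and 18.6% in Pax7KR, where Pax7WT replicate 2 was still the highest library. Transcripts annotated as protein-coding held 90.6% to 91.2% of the genes' reads in every library, and retained-intron transcripts 3.32% to 3.61%. Single genes differed from this pooled figure. By mean share of the gene's TPM, the protein-coding transcript held 12.1% in Rps16, 9.35% in Rps20 and 26.5% in Rpl35. A transcript annotated for nonsense-mediated decay held 56.0% in Rpl12 and 48.2% in Rpsa. The level given for a gene is the sum over all its transcripts, whatever their annotation.

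**Figure D2:**
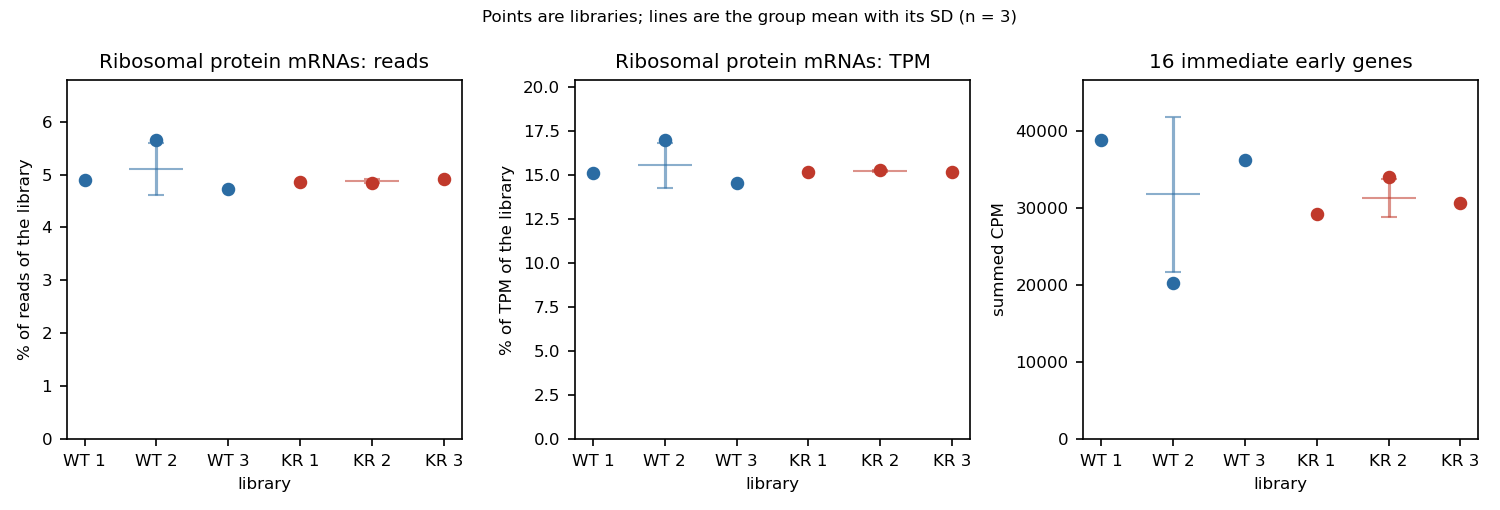
Share of reads (%) and share of TPM (%) taken by the 84 ribosomal protein genes, and summed CPM of 16 immediate early genes, in each of the 3 Pax7WT (blue) and 3 Pax7KR (red) libraries, with the group mean and SD (n = 3). Pax7WT replicate 2 is the highest library for the ribosomal protein mRNAs, at 5.66% of reads and 17.0% of TPM, and the lowest for the immediate early genes, at 20277 CPM.

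The raised level in Pax7WT replicate 2 ran through the whole set. It was the highest of the 6 libraries for 77 of the 82 tested ribosomal protein mRNAs (93.9%), against 19.6% of all 17152 genes tested, and was the lowest library for 0 of them. On the log2(CPM + 1) scale, all 82 mRNAs lay above their own mean over the 6 libraries in this library, by a median of 0.18. The medians of the other libraries were -0.01 and -0.06 in Pax7WT and -0.07, -0.04 and -0.01 in Pax7KR.

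The same library also stood apart in other genes. It had the lowest summed level of the 16 immediate early genes, which are known to respond to tissue dissociation, at 20277 CPM against 29275 to 38908 CPM in the other 5 libraries, with Fos at 3482 CPM against 4967 to 6727 CPM. It had the lowest sum over the 12 satellite cell markers, 8823 CPM against 9319 to 9640 CPM. It was the highest library for 41 of 65 ribosome biogenesis genes and 9 of 14 elongation factors, and for 26 of 78 mitochondrial ribosomal proteins. The part of these differences, and of its lower depth, in the level of the ribosomal protein mRNAs was not tested.

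**Figure D3:**
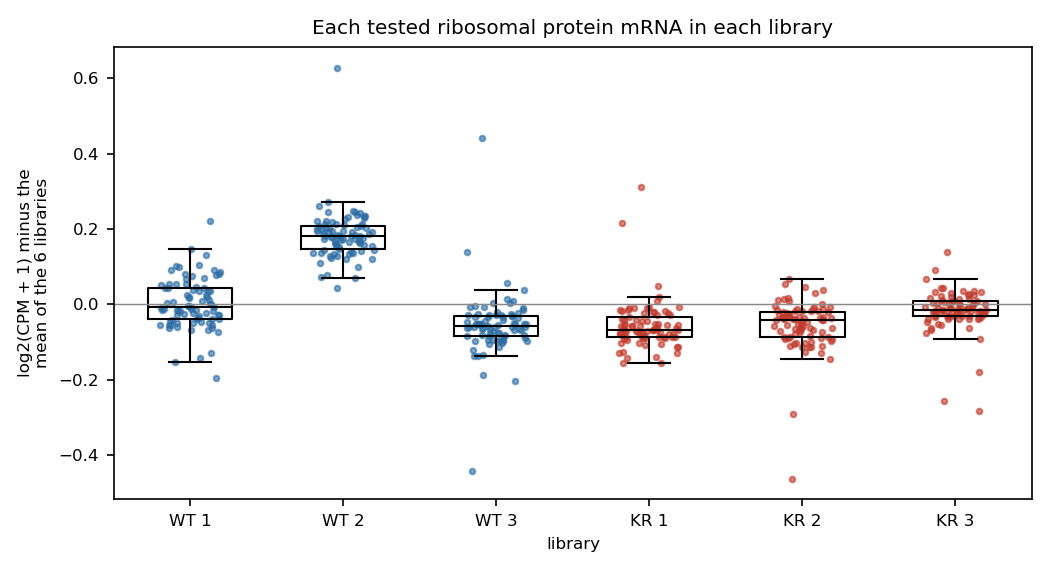
Difference of each of the 82 tested ribosomal protein mRNAs from its own mean over the 6 libraries, in log2(CPM + 1), per library, as points with a box for the quartiles and median. All 82 points of Pax7WT replicate 2 lie above 0, with a median of 0.18, and the medians of the other 5 libraries lie between -0.07 and -0.01.

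No ribosomal protein mRNA was called different between the genotypes. At an adjusted p under 0.1 in edgeR's quasi-likelihood test, 0 of 82 were called in either direction, where 0 of 17152 genes (0%) were called in all, and the smallest adjusted p of a ribosomal protein mRNA was 0.992. DESeq2 called 0 of 82 as well and 30 genes in all. At an unadjusted p under 0.05, 5 of 82 (6.1%) were lower in Pax7KR and 0 higher, against 2.43% of all genes lower, 2.26% higher and 4.68% in either direction.

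The fitted differences were small and nearly all of the same sign. The log2 fold change of Pax7KR over Pax7WT was below 0 for 79 of the 82 mRNAs, where it was below 0 for 51% of all genes tested, and above 0 (49% of all genes) for Rps27l, Rpl5 and Rpl12. Its median was -0.09 over the ribosomal protein mRNAs, -0.09 for each subunit, and -0.0037 over all genes. The libraries of the genotypes did not overlap for 7 of 82, all 7 lower in Pax7KR, against 10.3% of all genes, of which 5.19% were lower and 5.14% higher. The 7 were Rpl35, Rpl27, Rps7, Rps26, Rps4x, Rps3a1 and Rps20, of which the last 3 are named after their values were seen. This holds for the values as quantified, without the reads of near-identical copies.

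The size of this shift, and how many mRNAs shared its sign, rested on Pax7WT replicate 2. Without it, 51 of the 82 mRNAs had a log2 fold change below 0 and 31 above 0, with a median of -0.01, and 1 of 82 had an unadjusted p under 0.05, against 6.19% of all genes. Leaving out any other library kept 78 to 81 of the 82 below 0. Without Pax7WT replicate 3, the median was -0.14 and 18 of 82 had an unadjusted p under 0.05, all 18 lower, against 5.08% of all genes. Without Pax7KR replicate 2, the library low in Y-linked mRNAs, 80 were below 0 and the median was -0.09.

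**Figure D4:**
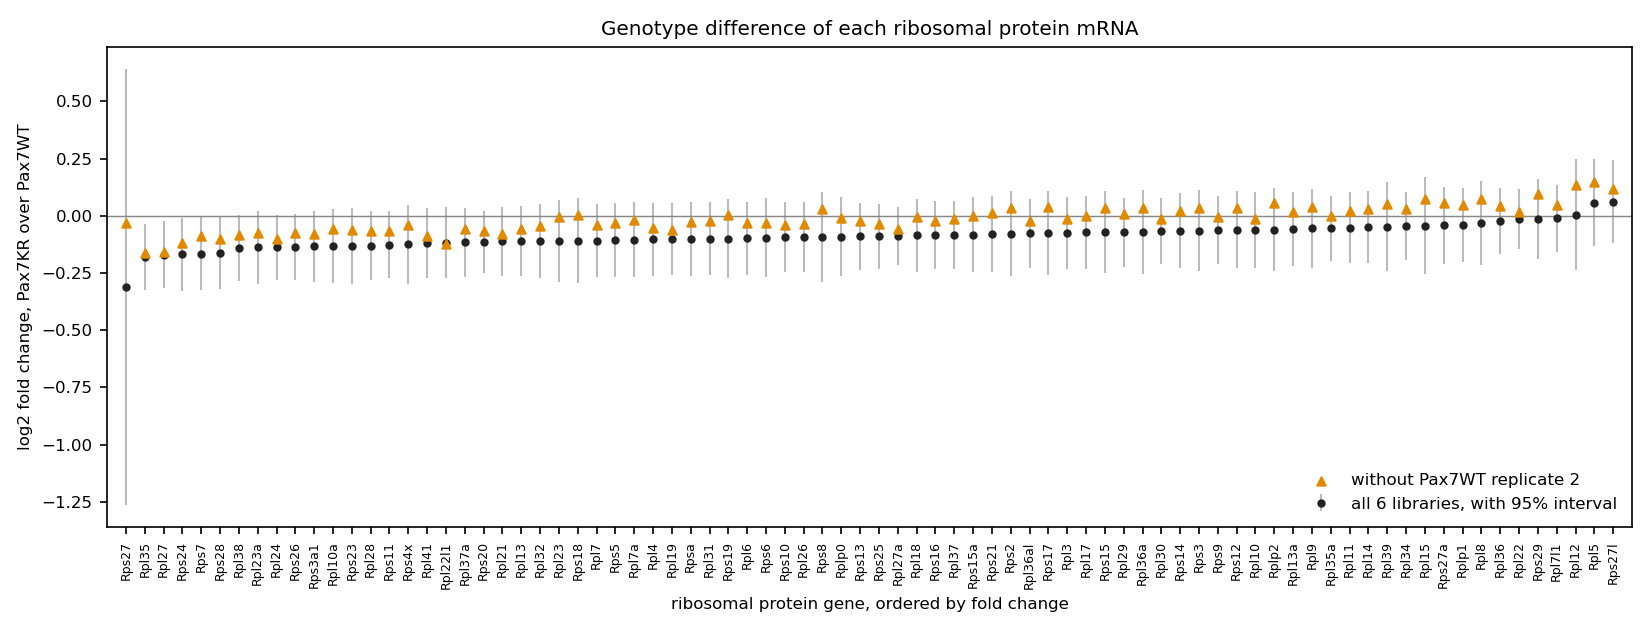
Log2 fold change of Pax7KR over Pax7WT for the tested ribosomal protein mRNAs, without 1 that is not reported individually and without Rpl3l (log2 fold change -1.05, interval -3.22 to 1.13), ordered by value, from all 6 libraries with its 95% interval (black) and without Pax7WT replicate 2 (triangles). Of all 82 tested, 79 are below 0 with all libraries and 51 without that library.

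The data bounded the difference closely for most of the set. The median standard error was 0.074 on the log2 scale, against 0.14 over all genes. The 95% interval lay within 1.5-fold in both directions for 80 of the 82 mRNAs and within 1.25-fold for 77, against 9858 and 6385 of the 17152 genes. The exceptions at 1.5-fold were Rpl3l, on 1 to 15 reads, and Rps27, on 262 to 565 reads.

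Among the 8 mRNAs with the smallest unadjusted p, Rpl35, a protein at the exit of the polypeptide tunnel, was measured at 519, 512 and 467 CPM in Pax7WT and at 429, 429 and 463 CPM in Pax7KR. All 3 Pax7KR libraries were below all 3 Pax7WT libraries, by a narrow margin for Pax7KR replicate 3. Near-identical copies, not counted in these values, added 6.61% to the reads of Rpl35. The log2 fold change was -0.18 (SE 0.066, edgeR unadjusted p = 0.0171, adjusted p = 0.992), and it was -0.16 without Pax7WT replicate 2.

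Rpl27, of the large subunit, was measured at 125, 127 and 122 CPM in Pax7WT and at 105, 106 and 121 CPM in Pax7KR. Pax7KR replicate 3 came close to the lowest Pax7WT library, and the groups did not overlap. Its log2 fold change was -0.17 (SE 0.067), and -0.16 without Pax7WT replicate 2. Copies added 99.7% to its reads and are not counted in these values. Every 31-base sequence of the copy Gm11518 also occurs in Rpl27. Gm11518 held 746, 912 and 743 TPM in Pax7WT and 782, 800 and 805 TPM in Pax7KR. Those groups overlapped (log2 fold change -0.07, SE 0.080). The values of Rpl27 therefore depend on how reads were divided between the gene and its copy.

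Rps24, of the small subunit, was measured at 834, 880 and 765 CPM in Pax7WT and at 707, 712 and 788 CPM in Pax7KR. The groups overlapped through Pax7KR replicate 3, which lay above Pax7WT replicate 3. Its log2 fold change was -0.17 (SE 0.074), and -0.12 without Pax7WT replicate 2.

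Rps7 was measured at 652, 765 and 656 CPM in Pax7WT and at 602, 608 and 636 CPM in Pax7KR. The groups did not overlap, and Pax7WT replicate 2 stood far above the other 5 libraries. Its log2 fold change of -0.17 (SE 0.074) became -0.09 without that library. Near-identical copies, not counted in these values, added 15.7% to the reads of Rps7. Of these, Gm6472 held 452, 272 and 355 TPM in Pax7WT and 412, 363 and 483 TPM in Pax7KR (log2 fold change 0.16, SE 0.23). Rps28, which lines the path by which mRNA leaves the small subunit, was measured at 408, 441 and 377 CPM in Pax7WT and 346, 357 and 393 CPM in Pax7KR. Those groups overlapped, with log2 fold changes of -0.16 and, without Pax7WT replicate 2, -0.10.

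The other 3 of these 8, Rpl24, Rpl38 and Rps26, had log2 fold changes of -0.14 each and did not reach an unadjusted p of 0.05. Rpl38 is known for a role in axial patterning of the mouse embryo, and Rps26 lies beside Rps28 on the mRNA path. Without Pax7WT replicate 2 their values were -0.10, -0.08 and -0.07.

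Of the 3 mRNAs with a log2 fold change above 0, Rps27l had 33.3, 36.5 and 31.6 CPM in Pax7WT and 34.3, 35.2 and 36.2 CPM in Pax7KR, and a log2 fold change of 0.06 (SE 0.084). Rpl5 and Rpl12 had values of 0.06 (SE 0.087) and 0.00 (SE 0.11). The groups overlapped for all 3. With the near-identical copies added, Rpl5 changed sign to -0.08 and Rpl12 to -0.14, and 81 of the 82 mRNAs were below 0.

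The large subunit stalk, which recruits the translation factors, is built of Rplp0, Rplp1 and Rplp2, with Rpl12 at its base. Rplp0, its anchor, was measured at 1498, 1750 and 1474 CPM in Pax7WT and 1467, 1427 and 1533 CPM in Pax7KR. Rplp1 was measured at 549, 645 and 537 CPM in Pax7WT and 562, 561 and 560 CPM in Pax7KR. Rplp2 was measured at 314, 389 and 307 CPM in Pax7WT and 324, 321 and 322 CPM in Pax7KR. In all 3 the Pax7KR libraries lay within the Pax7WT range or just below it, and the log2 fold changes were -0.09, -0.04 and -0.06, against -0.01, 0.05 and 0.06 without Pax7WT replicate 2. With Rpl12 the median of the 4 was -0.05, and without that library it was 0.05, with 3 of the 4 above 0.

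All 8 proteins of the polypeptide tunnel and its exit had log2 fold changes below 0 (median -0.10), as had all 6 large subunit proteins near the catalytic centre (median -0.07) and all 9 of the mRNA path and decoding site of the small subunit (median -0.10). Of these 23 genes, Rpl35 and Rps28 had an unadjusted p under 0.05, both lower, against 2.43% of all genes lower. Without Pax7WT replicate 2, 7 of 8, 4 of 6 and 5 of 9 were below 0, with medians of -0.04, -0.01 and -0.03.

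Rps6, the substrate of the S6 kinases downstream of mTORC1, was measured at 860, 901 and 730 CPM in Pax7WT and 746, 794 and 791 CPM in Pax7KR. Rpsa, also known as a laminin receptor, was measured at 1143, 1297 and 1094 CPM in Pax7WT and 1077, 1129 and 1087 CPM in Pax7KR. Rps27a, made as a fusion with ubiquitin, was measured at 402, 479 and 389 CPM in Pax7WT and 400, 410 and 423 CPM in Pax7KR. The groups overlapped in each, and the log2 fold changes were -0.10 (SE 0.080), -0.10 (SE 0.076) and -0.04 (SE 0.078). Rpl11, the partner of Rpl5 in binding Mdm2, had a log2 fold change of -0.05 (SE 0.072). Copies not counted in these values added 54.9% to the reads of Rps6 and 10.7% to those of Rpl11. Every 31-base sequence of the copy Rps6-ps4 also occurs in Rps6. That copy had a log2 fold change of -0.19 (SE 0.059, edgeR adjusted p = 0.992). The values of Rps6 therefore depend on how reads were divided between the gene and its copy.

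Of the 18 listed genes mutated in Diamond-Blackfan anaemia, an inherited failure of red cell production, 17 had log2 fold changes below 0. The 5 with an unadjusted p under 0.05 were the same Rpl35, Rpl27, Rps24, Rps7 and Rps28, all lower, against 2.43% of all genes lower, and the list was chosen with earlier results of these data known. Without Pax7WT replicate 2, 12 of the 18 were below 0, with a median of -0.02.

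Ribosomal protein mRNAs also served as reference genes for the quantitative PCR of the study. Rps18 was measured at 621, 754 and 591 CPM in Pax7WT and 600, 592 and 632 CPM in Pax7KR. Pax7WT replicate 2 was the highest and the other 5 libraries were close together. Its log2 fold change was -0.11 (SE 0.086, edgeR adjusted p = 0.996, interval -0.29 to 0.08) with all libraries and 0.00 without that library. Rps16 and Rps20, further reference genes named here after their values were seen, had log2 fold changes of -0.08 (SE 0.068) and -0.12 (SE 0.063). Without Pax7WT replicate 2 the values were -0.02 and -0.07. Copies not counted here added 68.6% to the reads of Rps16 and 22.1% to those of Rps20.

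Genes grouped by these features, as annotated, had like medians. The median log2 fold change was -0.09 for the 29 genes with a pyrimidine run within 5 bases of an annotated start. For the 33 tested genes with a RefSeq start but no run that near, it was -0.09 as well. These 33 are not shown to lack the motif, so the 2 medians do not compare mRNAs with and without it. The median was -0.09 for the 30 hosts of small nucleolar RNA genes and -0.09 for the 52 tested genes without one. The 4 X-linked genes had log2 fold changes from -0.12 to -0.05.

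Other lists of the translation machinery were read from the same fit. Of the 14 elongation factors, 13 had log2 fold changes below 0 (median -0.08). Of them, 0 had an unadjusted p under 0.05, against 4.68% of all genes. Eef1a1, which brings aminoacyl-tRNA to the ribosome, was measured at 11726, 12858 and 11259 CPM in Pax7WT and 10885, 11179 and 11141 CPM in Pax7KR. All 3 Pax7KR libraries were below all 3 Pax7WT libraries, by a narrow margin between Pax7KR replicate 2 and Pax7WT replicate 3. The genotypes did not overlap for 4 of the 14 elongation factors, all 4 lower in Pax7KR, against 5.19% of all genes lower. Without Pax7WT replicate 2, 10 of the 14 were below 0, with a median of -0.04. Rack1 and Fau, which encode ribosomal proteins but lie outside the symbol rule, had log2 fold changes of -0.11 and -0.07.

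The mitochondrial ribosomal proteins, which form a separate ribosome encoded by other nuclear genes, had 47 of 78 below 0 (median -0.03), with 2 lower and 0 higher at an unadjusted p under 0.05. The 41 initiation factors had 27 below 0 (median -0.03), with 1 lower and 2 higher. The 65 ribosome biogenesis genes had 41 below 0 (median -0.03), with 3 lower, among them Nmd3 and Mphosph10, and 0 higher. At that p, 2.43% of all genes tested were lower and 2.26% higher. Without Pax7WT replicate 2 the medians were -0.0013, -0.01 and 0.02.

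**Figure D5:**
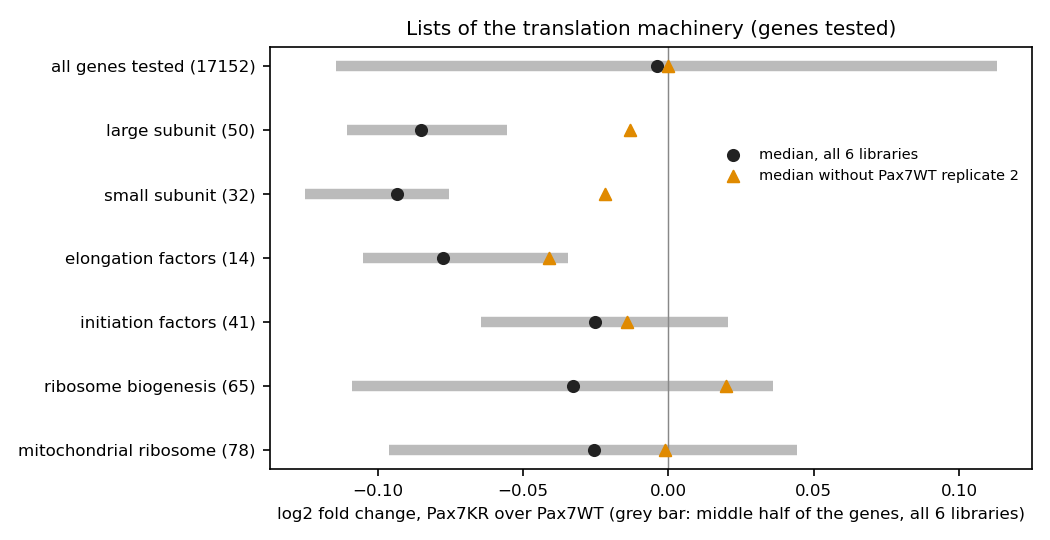
Median log2 fold change of Pax7KR over Pax7WT for each list with its interquartile range (grey bar), from all 6 libraries (points) and without Pax7WT replicate 2 (triangles), with the number of genes tested in brackets. The large and small subunit medians are -0.09 with all libraries and -0.01 and -0.02 without that library.

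Among 16 tested genes of the RNA polymerase I machinery, 13 were below 0 (median -0.05), with 1 lower (Taf1d) and 0 higher at an unadjusted p under 0.05. Among 23 genes of mTORC1 and of the regulators of mRNAs with a pyrimidine start, 13 were below 0 (median -0.0039), with Myc and Larp4 lower and 0 higher. Myc, which drives transcription of ribosomal genes, was measured at 118, 102 and 114 CPM in Pax7WT and 93.3, 93.3 and 104 CPM in Pax7KR, groups that overlapped, with a log2 fold change of -0.20 (SE 0.072, edgeR adjusted p = 0.992). Among 10 genes of the p53 response to free ribosomal proteins, 7 were below 0 and 3 above, with Phlda3 higher (log2 fold change 0.37, SE 0.16) and 0 lower at an unadjusted p under 0.05. For these 3 lists too, the shares over all genes tested were 2.43% lower and 2.26% higher.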

How the data were processed

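Satellite cell RNA of 3 Pax7WT and 3 Pax7KR samples, separate replicates by their labels, was sequenced. The authors quantified paired reads with salmon (version 1.3.0, per the submitters' processing notes) against GENCODE transcripts of GRCm38 with genomic decoys, and deposited an estimated count and a TPM value for each transcript. The authors' deposited table of their own comparison, with log2 fold changes and p-values, was not used.

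Estimated counts were summed per gene with an earlier GENCODE release of the same build and rounded. Of 140992 transcripts, 1201 were not matched and were left out (0.592% to 0.634% of reads per library). The filter kept the 17152 genes that had at least 5 reads in at least 2 libraries, and these were fitted on genotype alone in edgeR (version 4.0.16, TMM, robust quasi-likelihood test) in R (version 4.3.3), with Benjamini-Hochberg adjustment over all genes and a cut-off of 0.1. DESeq2 (version 1.42.0), other normalizations and filters, the average transcript length as an offset, a replicate block, adding the reads of near-identical copies and leaving out each library were alternatives. Each p-value sets the difference between the genotypes against the spread between the 3 samples of a genotype. That spread was estimated for each gene with information from all genes. The steps were tested on simulated counts.

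CPM are counts scaled to the TMM library size, and TPM were summed per gene from the deposited values. Standard errors and 95% intervals come from the quasi-likelihood fit. Start sites and their sequences were those of RefSeq on GRCm38.p6, which held 64 of the 84 genes.

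The named genes are the 5 highest and 5 lowest by TPM, the 8 in each direction with the smallest unadjusted p, the 3 with the largest spread, those not tested, the paralogues with their partners, Rplp0, Rplp1, Rplp2, Rpl12, Rpl5, Rpl11, Rps6, Rps27a, Rpsa and Rps18, and up to 2 genes of each other list. Of these, 1 ribosomal protein gene and 1 gene of another list are counted but not reported individually here. Genes named beyond this rule were chosen after their values were seen. The ribosomal protein genes and the lists were chosen with earlier results of these data known.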

Additional observations from a re-analysis of the deposited data

How the results depend on the processing

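In every alternative that was run, 0 ribosomal protein mRNAs were called at an adjusted p under 0.1, and the median log2 fold change over them was below 0, from -0.14 without Pax7WT replicate 3 to -0.01 without Pax7WT replicate 2. The count of all genes called moved from 0 to 30 with DESeq2, 45 with DESeq2 and the average transcript length as offset, 157 without a filter on low reads and 13 with a replicate block, and ranged from 1 to 32 when each library was left out in turn. The cause of these moves was not tested. Ribosomal protein mRNAs with an unadjusted p under 0.05 numbered 5 of 82 with all libraries, against 4.68% of all genes. With the length offset they numbered 3 in edgeR (4.94% of all genes) and 3 in DESeq2 (4.88%). Without a filter they numbered 9 of 84 (5.7% of all genes). They numbered 2 with a replicate block (4.33%) and 2 with the reads of near-identical copies added (4.7%). When each library was left out, they ranged from 0 without Pax7KR replicate 2 (3.16% of all genes) to 18 without Pax7WT replicate 3 (5.08%). No pairing by replicate number was seen. Deviations of same-numbered libraries from their group means correlated across genes at 0.00176, 0.0447 and -0.0558, against -0.0848 to 0.0818 for differently numbered libraries. Whether samples were paired by litter or preparation cannot be told from these values. Of the 82 mRNAs, 50 kept the sign of their log2 fold change in all 16 alternatives and 28 turned in 1 of them. Rpl3l, Rpl10l and Rpl39l had at most 15 reads in a library, and the part of sequencing depth in this was not tested.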
